A study of Mus musculus with 3 samples.

Results

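The genes described here are 10 immediate early genes, Fos, Fosb, Fosl2, Jun, Junb, Jund, Atf3, Egr1, Ier2 and Dusp1, out of 18193 genes with a probe set of their own on the arrays. They were chosen by name, as AP-1, Egr and related genes that respond to signalling and to handling of cells. No measured value entered the rule, but earlier results of these data were known when it was set. All 13 of their probe sets that carry 1 gene symbol were read, 2 each for Jun, Jund and Fosl2 and 1 each for the other 7 genes. Of these, 12 reached the floor for a measured signal (25.6 units, at the 40th percentile of the table) on all 3 arrays, and 1, a second probe set of Jund, stood under it on all 3.

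The cells came from A2.snail, a mouse embryonic stem cell line that expresses Snail when doxycycline is added. Snail is a zinc finger repressor that drives epithelial cells towards a mesenchymal state. They had differentiated for 3 days as embryoid bodies, floating aggregates, in medium with 10% serum (FCS) and DKK1, a secreted inhibitor of Wnt signalling, so that all groups shared the line, the serum and the DKK1. The 3 groups were Flk1- cells of an untreated culture (0 ng/mL doxycycline), and the Flk1- and the Flk1+ fraction of a culture that received doxycycline at 250 ng/mL from day 2, called Snail Flk1- and Snail Flk1+. Flk1, encoded by Kdr, is the VEGF receptor that marks mesoderm able to form vessels and blood. Total RNA of each group was measured on 1 Affymetrix array, so the spread between cultures is unknown and neither a test nor a p-value is given. No untreated Flk1+ cells and no doxycycline-treated cells without the Snail gene were analysed here, so Snail and doxycycline cannot be told apart. The text for the series says that the untreated Flk1- cells were sorted as well, whereas the source label of that array names no gate.

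Immediate early genes are transcribed within minutes of a stimulus, from promoters already occupied by serum response factor, its ternary complex partners and CREB family proteins, without need for new protein. The Fos and Jun proteins pair through leucine zippers to form AP-1, which binds the TGANTCA element, while Atf3 can pair with Jun proteins or act as a repressor. Egr1 is a zinc finger factor induced through ERK, and Dusp1 is a phosphatase that switches MAP kinases off. In embryonic cells these genes follow growth factor signals, and in any tissue they also respond to dissociation and sorting.

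The 250 bases before the annotated start are shown for Jun, Junb and Atf3, which were the members highest in Snail Flk1+ cells by at least 2-fold, and for Fos, which was not. They come from RefSeq's annotation of GRCm38.p6, run 5′ to 3′ on the strand of the gene, and lie at chr4:95052223-95052472 (minus strand) for Jun, chr8:84978749-84978998 (minus) for Junb, chr1:191183334-191183583 (minus) for Atf3 and chr12:85473640-85473889 (plus) for Fos. Capitals mark TGACATCA, the variant element of the Jun promoter, and TGACG, the core that CREB and ATF proteins read, which appears as CGTCA where it lies on the other strand.
Jun: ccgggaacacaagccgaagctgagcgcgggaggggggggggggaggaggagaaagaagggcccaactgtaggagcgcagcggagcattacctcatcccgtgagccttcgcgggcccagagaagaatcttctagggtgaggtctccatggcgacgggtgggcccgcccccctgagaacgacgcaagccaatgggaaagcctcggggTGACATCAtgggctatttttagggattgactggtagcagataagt
Junb: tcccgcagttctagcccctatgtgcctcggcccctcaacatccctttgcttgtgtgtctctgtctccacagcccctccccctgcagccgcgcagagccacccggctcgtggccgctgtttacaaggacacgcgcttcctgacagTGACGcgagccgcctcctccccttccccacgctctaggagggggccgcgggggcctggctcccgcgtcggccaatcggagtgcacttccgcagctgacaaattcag
Atf3: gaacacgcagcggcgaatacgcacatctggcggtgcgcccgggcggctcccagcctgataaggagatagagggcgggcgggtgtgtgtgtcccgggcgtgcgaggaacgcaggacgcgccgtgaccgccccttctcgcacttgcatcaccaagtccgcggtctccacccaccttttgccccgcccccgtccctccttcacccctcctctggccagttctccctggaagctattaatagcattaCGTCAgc
Fos: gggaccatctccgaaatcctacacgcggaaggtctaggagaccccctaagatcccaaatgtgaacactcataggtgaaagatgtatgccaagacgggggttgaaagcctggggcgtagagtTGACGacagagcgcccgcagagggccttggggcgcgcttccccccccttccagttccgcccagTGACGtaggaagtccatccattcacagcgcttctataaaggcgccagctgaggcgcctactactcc
The TGACATCA of Jun lay 45 to 38 bases before the start. The TGACG of Junb lay 106 to 102 bases before it, that of Atf3 7 to 3 bases, and those of Fos 129 to 125 and 66 to 62 bases.

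A promoter was found for 8 of the 10 genes, with none for Egr1 and Ier2. Searched on both strands, TGACG was present in 5 of the 8 (Atf3, Dusp1, Fos, Fosb and Junb) and in 17.8% of the 32851 promoter windows of the same length in the table. The full element TGACGTCA, which contains it, was present in Dusp1 only, and in 1.55% of all windows. TGACATCA was present in Jun only, and in 2.93% of all windows. CACCTG, a sequence bound by Snail, was present in Fosb only, at 153 to 148 and 146 to 141 bases before the start as CAGGTG, and in 17.2% of all windows. None of the 8 windows held TGANTCA (6.75% of all windows), the Egr element GCGTGGGCG (0.536%) or the CArG box of serum response factor (1.47%). These are matches of letters in a short window, and elements farther upstream were not searched. TGACG and TGACATCA were added to the search after the sequences had been seen.

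Across the 3 arrays the 10 genes did not share one pattern. Jun and Junb were lowest in untreated Flk1- cells, intermediate in Snail Flk1- cells and highest in Snail Flk1+ cells. Atf3 stood alike in both Flk1- arrays and far higher in the Flk1+ array. Egr1, Fos and Fosb were highest in Snail Flk1- cells, whereas Ier2, Dusp1 and Jund stayed within 1.33-fold and Fosl2 depended on the probe set. Values below are probe set intensities on a linear scale, and differences are on the log2 scale after adding 9.53 intensity units, which understates those of dim genes.

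**Figure D1:**
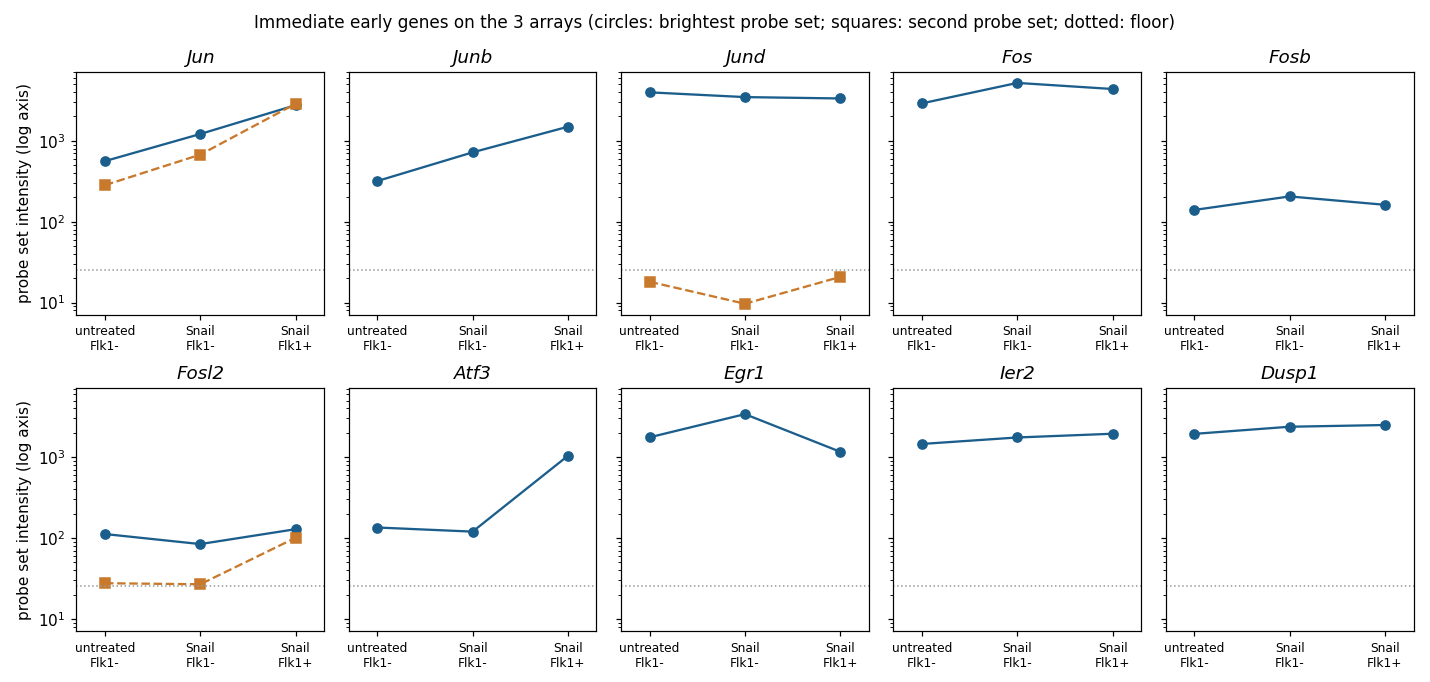
Probe set intensity (log axis) of each gene on the 3 arrays, untreated Flk1-, Snail Flk1- and Snail Flk1+. Circles are the brightest probe set, squares the second one where a gene has 2, and the dotted line is the floor of 25.6. Both Jun probe sets and Junb are higher on each next array, Atf3 goes from 119.8 in Snail Flk1- to 1037 in Snail Flk1+ cells, and Egr1 peaks at 3397 in Snail Flk1- cells.

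Jun encodes the partner that AP-1 dimers are built around. The brightest Jun probe set read 562 in untreated Flk1-, 1215 in Snail Flk1- and 2759 in Snail Flk1+ cells. Its second probe set gave 283, 675 and 2871. Both probe sets put the arrays in the same order. By the brightest, Jun was 2.14-fold higher in Snail Flk1- than in untreated Flk1- cells, 2.26-fold higher in Snail Flk1+ than in Snail Flk1- cells and 4.85-fold higher in Snail Flk1+ than in untreated Flk1- cells. By the second, these were 2.34-fold, 4.20-fold and 9.84-fold, so that the probe sets were 0.13 apart (log2) for the first difference and 0.89 apart for the second. Both read the same RNA, and their gap is no measure of the spread between cultures.

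Junb encodes a Jun protein that activates weakly on its own and often opposes Jun. Junb, with 1 probe set, stood at 318 in untreated Flk1-, 721 in Snail Flk1- and 1494 in Snail Flk1+ cells. It was 2.23-fold, 2.06-fold and 4.58-fold higher in the 3 comparisons, in the same order as Jun and close to Jun's brightest probe set in size. Jund, the Jun gene that most cells express without a stimulus, gave 3977, 3475 and 3342. Jund was thus slightly lower in both Snail arrays, by 0.19 and 0.25 on the log2 scale, far inside the 2-fold rule. Its second probe set, under the floor on every array at 18.1, 9.68 and 20.8, gives no fold. Of the 3 Jun genes, the inducible pair was higher in the Snail arrays and the constitutive gene was not.

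The Fos genes encode partners of the Jun proteins, and Fos proteins do not form stable dimers with each other. Fos gave 2909 in untreated Flk1-, 5203 in Snail Flk1- and 4374 in Snail Flk1+ cells. It was 1.79-fold higher in Snail Flk1- than in untreated Flk1- cells, under the 2-fold rule, and 1.19-fold lower in Snail Flk1+ than in Snail Flk1- cells. Fosb gave 139.9, 205 and 162, with the same order of arrays as Fos and a largest difference of 1.44-fold. Fos was thus well above the floor on every array, and its highest array was not that of Jun.

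Fosl2, which encodes the Fos protein Fra-2, was read by 2 probe sets that differ. The brightest gave 112, 84.1 and 128, with no difference past 1.47-fold. The second gave 27.6 and 26.8 in the Flk1- arrays, just above the floor, and 100.5 in the Flk1+ array, which was 3.03-fold higher than in Snail Flk1- and 2.96-fold higher than in untreated Flk1- cells. Both probe sets were highest in the Flk1+ array and lowest in Snail Flk1- cells. In the mean of the 2 probe sets, Fosl2 was higher in Snail Flk1+ than in Snail Flk1- cells by 1.08 on the log2 scale, so whether Fosl2 passed 2-fold there depended on the probe set.

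Atf3 encodes a stress-responsive bZIP factor. It gave 135 in untreated Flk1-, 119.8 in Snail Flk1- and 1037 in Snail Flk1+ cells. The Flk1+ array was 8.09-fold above the Snail Flk1- array and 7.25-fold above the untreated one, while the 2 Flk1- arrays were 1.12-fold apart. The difference between Snail Flk1+ and Snail Flk1- cells ranked 62 from the highest among 13623 measured genes, and 0.565% of genes were at least as far from 0. By brightest probe sets it was the largest difference among the 10 genes in both comparisons with the Flk1+ array, but the second probe set of Jun, at 9.84-fold, exceeded it against untreated Flk1- cells. The Atf3 value rests on 1 probe set.

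Egr1 had the opposite course. It gave 1757 in untreated Flk1-, 3397 in Snail Flk1- and 1164 in Snail Flk1+ cells. It was 1.93-fold higher in Snail Flk1- than in untreated Flk1- cells, just under 2-fold, and 2.90-fold lower in Snail Flk1+ than in Snail Flk1- cells. The latter difference ranked 248 from the lowest among 13623 genes. Egr1 was the single member more than 2-fold lower in any comparison, and also stood 1.51-fold lower in Snail Flk1+ than in untreated Flk1- cells.

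Ier2, a small nuclear protein gene induced with Fos, gave 1454, 1748 and 1944. Dusp1 gave 1937, 2373 and 2492. Both were slightly higher in the Snail arrays, with largest differences of 1.33-fold and 1.28-fold, and 43.4% and 48.4% of measured genes were at least as far from 0 in that comparison. Neither followed Jun and Junb by the size of the difference, although both shared their order of arrays. In all, 4 of the 10 genes (Jun, Junb, Ier2 and Dusp1) had the order untreated Flk1-, Snail Flk1-, Snail Flk1+, and the other 6 had 4 other orders. For Ier2 and Dusp1 the last step rested on log2 differences of 0.15 and 0.07, whose error is unknown. The share of all measured genes with each order was not counted, so these orders are a description only.

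By counts, 2 of the 10 genes, Jun and Junb, were at least 2-fold higher in Snail Flk1- than in untreated Flk1- cells and 0 lower, where 5.07% of 13548 measured genes passed 2-fold, 3.01% higher and 2.06% lower. Of those calls 59.4% were higher, and 43.9% with each array's median set equal, under which Jun and Junb kept theirs. Between Snail Flk1+ and Snail Flk1- cells, 3 were higher (Jun, Junb and Atf3) and 1 lower (Egr1), where 10.0% of 13623 genes passed, 5.06% higher and 4.96% lower. Between Snail Flk1+ and untreated Flk1- cells, 3 were higher and 0 lower, where 14.8% of 13766 genes passed, 8.33% higher and 6.52% lower. The median log2 differences of the 10 genes were 0.41, 0.11 and 0.39, beside 0.04, 0.0011 and 0.02 over all measured genes. With the mean of all probe sets per gene, the second was 0.23. With so few members a single gene sets much of each share. The third comparison is the sum of the other 2 on the log scale and shares an array with each, so it adds no separate evidence.

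**Figure D2:**
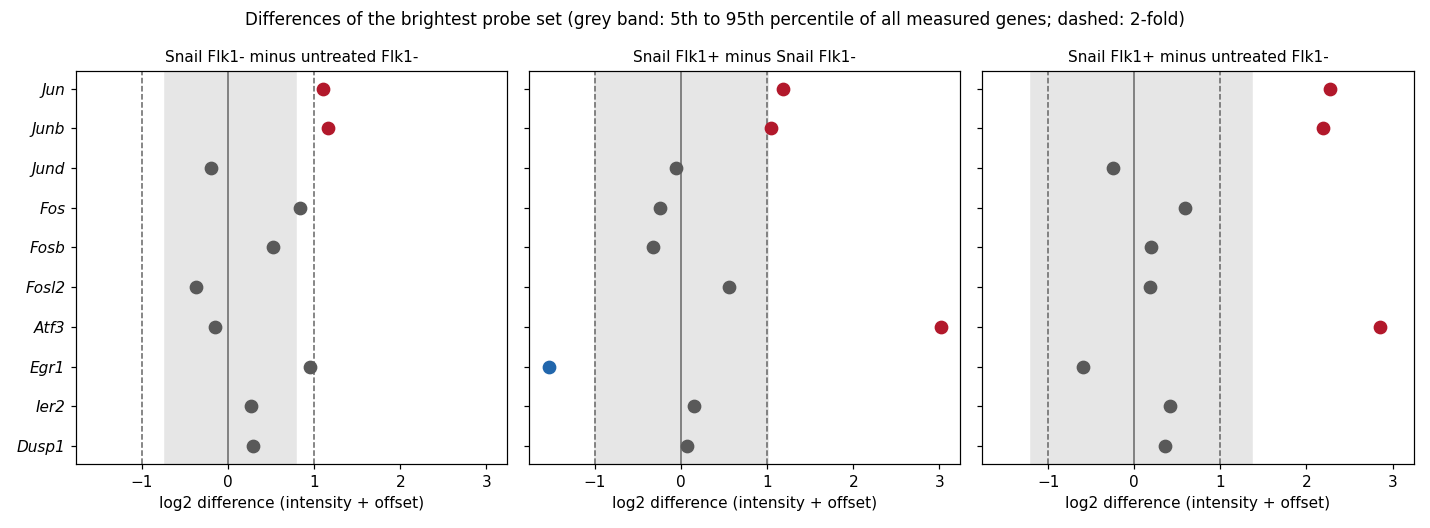
Log2 difference of the brightest probe set of each gene in the 3 comparisons, 1 array against 1. The grey band spans the 5th to 95th percentile of all measured genes, dashed lines mark 2-fold, red points are at least 2-fold higher and blue at least 2-fold lower. Jun (1.10, 1.18 and 2.28) and Junb (1.16, 1.04 and 2.20) lie past 2-fold in every panel, Atf3 (-0.16, 3.02 and 2.86) in both panels with the Flk1+ array, and Egr1 (-1.54) on the other side in the middle panel.

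Kdr, the gene of the sort, gave 10.5 and 9.73 in the Flk1- arrays and 404 in the Flk1+ array. The single Snai1 probe set gave 29.1, 13.1 and 19.8, near or under the floor, and whether the transgene holds its target was not determined. Cdh1, the E-cadherin gene that Snail represses, gave 6338, 3086 and 624. The 12 endothelial and hemangioblast markers had a summed intensity of 1738, 2115 and 14818, with 6, 8 and 12 at or above the floor. Sums of the pluripotency markers were 23917, 24815 and 9408, with 7 of 7 above it on each array. Among them Fgf5 gave 2058, 785 and 112. It was the 1 of 7 at least 2-fold lower in Snail Flk1- than in untreated Flk1- cells. The 7 epithelial markers summed to 16094, 6538 and 1858, with 7, 7 and 6 above the floor. Krt8, at 625, 523 and 644, did not share that decline, whereas 6 of the 7 were at least 2-fold lower in each comparison. For 7 feeder fibroblast markers the sums were 478, 891 and 668, with 5 above the floor on each array. These genes had no common order. Col3a1 (21.8, 122 and 191) was highest in Snail Flk1+, Dcn (111, 276 and 58.6) in Snail Flk1- and Thy1 (159, 158 and 87.8) in untreated Flk1- cells. The sums of 8 blood and macrophage markers were 819, 564 and 789, with 7, 6 and 8 above the floor. Those of 6 endoderm markers were 365, 608 and 2309, with 3, 4 and 4 above it. Most of the last sum was Sox17 (68.3, 96.2 and 1466), which vessel precursors also express, while Afp and Ttr were under the floor on all arrays. Dab2 (168, 404 and 560), Gata6 (22.1, 35.6 and 152) and Gata4 (78.9, 67.0 and 106) were also highest in Snail Flk1+ cells. Jun, Junb and Atf3 were highest in the Flk1+ array, as were Ier2, Dusp1 and both Fosl2 probe sets. The endothelial markers, which include Kdr, the gene of the sort, were highest there too. The part of these cell types in the values of the 10 genes was not tested, and in bulk RNA more cells of a type and more RNA per cell cannot be told apart.

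The other AP-1 subunits and bZIP partners, of which 13 of 14 had a probe set, held 3 genes that, like Atf3, were at least 2-fold higher in Snail Flk1+ than in either Flk1- array. In Snail Flk1- against untreated Flk1- cells, 0 of 11 measured genes passed 2-fold (median 0.08). In Snail Flk1+ against Snail Flk1- cells, 3 of 11 were higher and 0 lower (median 0.21). Jdp2, a partner of Jun that represses AP-1, gave 65.0 in untreated Flk1-, 73.6 in Snail Flk1- and 292 in Snail Flk1+ cells and was 3.63-fold higher in the last than in Snail Flk1- cells. Maf gave 36.0, 42.95 and 174, a 3.50-fold difference between the Snail arrays. A further probe set of Maf reached the floor in Snail Flk1+ cells only, at 34.98, with a log2 difference of 0.81. Batf3 gave 25.5, 34.6 and 87.5, 2.20-fold higher in Snail Flk1+ than in Snail Flk1- cells. In the third comparison 3 of 12 were higher, the same 3 genes, and 0 lower (median 0.03). Atf2 (1556, 1605 and 1613) and Atf4 (1757, 1712 and 1626) were nearly level. Fosl1, the gene of Fra-1, was just above the floor in untreated cells and under it in both others (26.8, 10.7 and 23.8).

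The other Egr genes were dim. Egr2 gave 56.0, 114 and 81.3 by its brightest probe set, 1.88-fold higher in Snail Flk1- than in untreated Flk1- cells. Its second gave 23.4, 87.0 and 56.3, in the same order of arrays. Egr3 gave 18.3, 48.2 and 14.7, so it was at least 1.89-fold higher in Snail Flk1- cells than in either other array, but its second probe set (34.3, 13.9 and 29.9) was lowest in those cells. Egr4 gave 35.7, 14.9 and 33.0. Of the 5 genes of this list, which also holds the Egr corepressors Nab1 and Nab2, 1 had a log2 difference past the threshold in the first comparison (higher), 1 in the second (lower) and 0 of 4 measured in the third, with medians of 0.36, 0.15 and 0.36. Both were Egr3, whose bound of 1.89-fold does not show 2-fold.

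Among 38 other immediate early genes, 3 of 37 measured were higher and 0 lower in Snail Flk1- than in untreated Flk1- cells (median 0.28). Sgk1, a kinase gene induced by serum, gave 844, 2657 and 4101 over the arrays and was 3.12-fold higher in Snail Flk1- than in untreated Flk1- cells. Cebpd and Socs3, both targets of STAT3, were 2.39-fold and 2.32-fold higher there. Socs3 gave 274, 647 and 1412, and all 3 of its probe sets were in that order. Cebpd gave 239, 586 and 1657, but its second probe set gave 21.4, 6.17 and 32.3, under the floor in both Flk1- arrays. Between Snail Flk1+ and Snail Flk1- cells, 5 of 38 were higher and 2 lower (median 0.23). Gadd45g, a growth arrest gene, was 10.3-fold higher, from 120.0 to 1326, and Rhob, a small GTPase gene, 2.78-fold higher, from 1085 to 3034. Klf2, like Egr1, was lower, by 2.92-fold, from 1082 to 364, and Bhlhe40 was 2.03-fold lower, from 335 to 161. Between Snail Flk1+ and untreated Flk1- cells, 10 of 38 were higher and 3 lower (median 0.44). Nr4a1, an early gene that encodes an orphan nuclear receptor, gave 471, 387 and 354.

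Among the MAP kinase phosphatase genes other than Dusp1, Dusp2 and Dusp4 stood out by size. In the first comparison 0 of 10 passed 2-fold (median 0.06), and in the second 2 were higher and 0 lower (median 0.64). Dusp2 gave 34.3, 36.5 and 804, a 17.7-fold difference between the Snail arrays, and Dusp4 gave 132, 173 and 890, a 4.93-fold difference. Both encode nuclear phosphatases of ERK. Against untreated Flk1- cells, 4 of 10 were higher in Snail Flk1+ cells and 0 lower (median 0.78), where 8.33% of 13766 measured genes were higher. Of the 4 higher genes, Dusp7 (2.06-fold) and Dusp9 (3.25-fold) depended on the probe set. A further one of Dusp7 gave 0.41 on the log2 scale, and further ones of Dusp9 gave 0.54 and 1.65. Egr1 was lower in Snail Flk1+ than in Snail Flk1- cells, while Dusp2 and Dusp4 were higher. Between these arrays 10.0% of 13623 measured genes passed 2-fold, and a link of these genes with Egr1 was not tested.

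Of the upstream kinases and transcription factors, 14 of 17 had a probe set of their own, and 1, Elk3, passed 2-fold, in each comparison (medians 0.23, 0.10 and 0.34). Elk3 encodes a ternary complex factor that partners serum response factor and can repress Fos. It gave 149, 709 and 3336, 4.53-fold higher in Snail Flk1- than in untreated Flk1- cells and 4.66-fold higher in Snail Flk1+ than in Snail Flk1- cells. Its 4 probe sets all put the arrays in the same order. Apart from the brightest, they gave 4.06, 5.32 and 1.55 in untreated Flk1- cells, under the floor. The last of these was under it in Snail Flk1- cells too, at 6.18. Srf gave 887, 1047 and 703, and its difference between the Snail arrays was 1.48-fold. Elk3 had the order of arrays of Jun and Junb, while Srf had that of Egr1 by differences under 2-fold. How many of all measured genes share these orders was not counted, and a link of Elk3 or Srf with the members was not tested.

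Stress genes were read beside the members. Of 13 heat shock genes with a probe set, 0 passed 2-fold in the first comparison (median 0.0046), 1 was lower in the second (median 0.08) and 0 in the third (median 0.15). The lower gene was Hspb1, with 1808, 2508 and 1001, in the order of arrays of Egr1. Hspa1b, the inducible Hsp70 gene, gave 201, 187 and 234, and its near-identical copy Hspa1a, which can share probes with it, gave 39.9, 33.9 and 45.1. Bag3 gave 283, 334 and 556, 1.93-fold higher in Snail Flk1+ than in untreated Flk1- cells. Hmox1 gave 130, 153 and 198, 1.48-fold higher there. By sign alone, 8 of the 13 were higher and 5 lower in that comparison. Of 11 integrated stress response genes, a pathway through which Atf3 can be induced, 1 of 10 measured was higher in the first comparison by the log2 rule (Nupr1, with 9.53 under the floor in untreated Flk1- cells, 42.9 in Snail Flk1- cells and a bound of at least 1.68-fold, so 2-fold was not shown) and 0 lower (median -0.05), and 0 of 10 were higher and 1 lower in the second (median -0.04). In the third, 1 of 9 was higher (Ppp1r15a, 2.09-fold) and 1 lower (Trib3, 3.62-fold), with a median of -0.09. Ddit3, a further gene of that response, gave 135, 130.0 and 133. The part of handling and sorting in the values of the 10 genes was not tested.

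Of 17 genes listed as targets of AP-1, 15 had a probe set, and 0 of 10 measured passed 2-fold in Snail Flk1- against untreated Flk1- cells (median -0.19). In Snail Flk1+ against Snail Flk1- cells, 1 of 9 was higher and 2 lower (median 0.13). The higher one was the protease gene Mmp9, with 22.3, 33.3 and 85.5. The lower ones were the metallothionein genes Mt1 (1751, 1509 and 249) and Mt2 (1553, 1386 and 185), which also respond to metals. In the third comparison 3 of 10 were higher, Mmp9, Cd44 (2.46-fold) and Vim (2.92-fold), and 2 lower, again Mt1 and Mt2 (median 0.02). Of 9 early response genes of VEGF, the ligand of Flk1, 1 of 8 measured was higher and 2 lower in Snail Flk1+ than in Snail Flk1- cells (median 0.11), namely Adamts1 at 3.00-fold, Egr3 (with the bound above) and F3. F3, the tissue factor gene, gave 107, 91.9 and 17.0. In that list 1 of 8 was higher and 0 lower in the first comparison (median 0.11), and 1 of 7 higher and 1 lower in the third (median 0.15); it shares Dusp5, Nr4a1, Egr3 and Hbegf with the lists above.

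**Figure D3:**
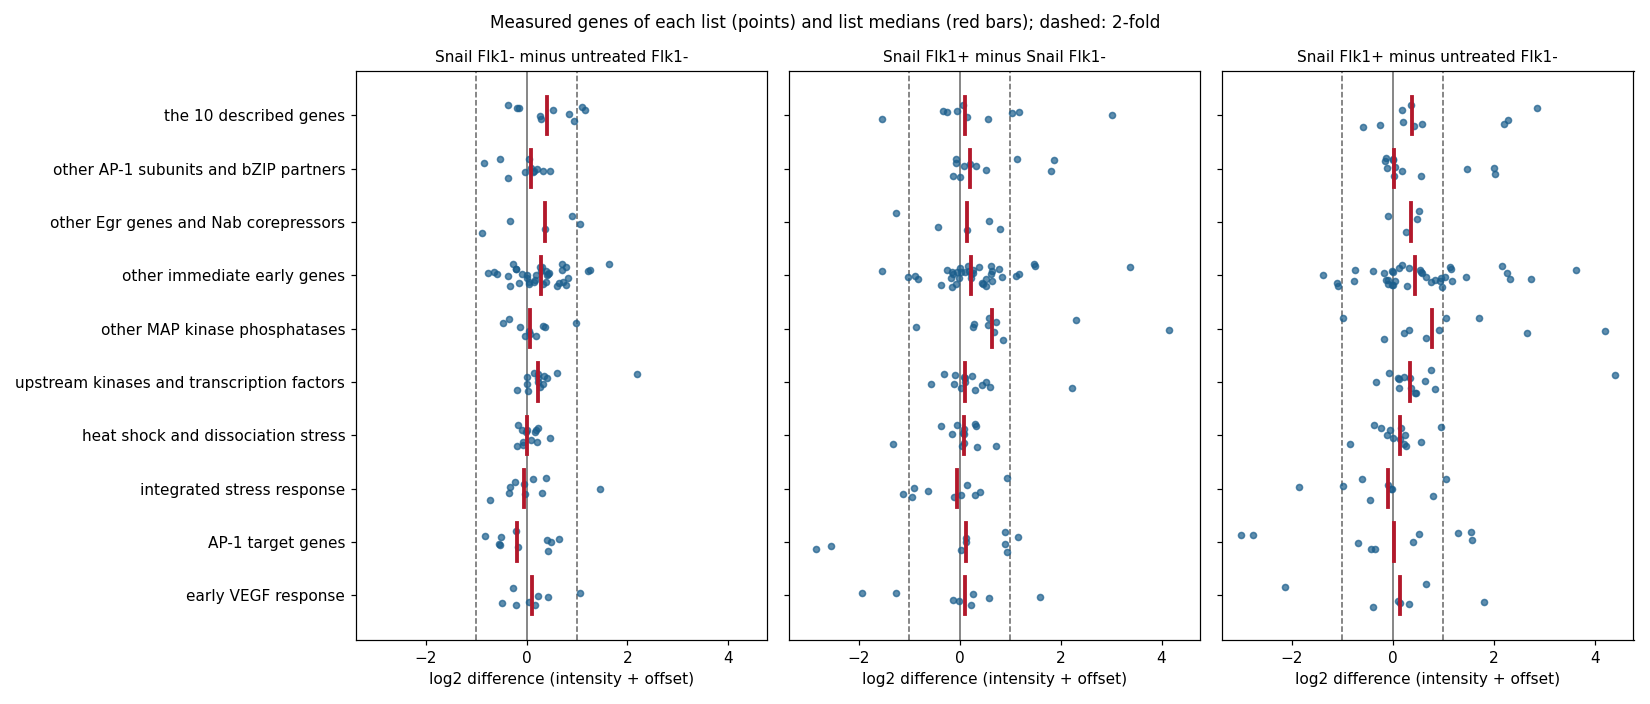
Log2 difference of every measured gene of the 10 genes' own list and the 9 pathway lists (points, marker lists left out) in the 3 comparisons, with the list median as a red bar and dashed lines at 2-fold. The highest points of these lists are Elk3 at 4.40 and Dusp2 at 4.21 in the comparison of Snail Flk1+ with untreated Flk1- cells, and the heat shock genes lie mostly between the dashed lines.

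For the 3 members with the widest range over the arrays, the genes nearest in the pair of differences (Snail Flk1- minus untreated Flk1-, and Snail Flk1+ minus Snail Flk1-) were searched among 12494 measured genes. Nearest to Jun were Tspan9, Ajap1 and Sh3kbp1, at Euclidean distances of 0.0076, 0.02 and 0.02 on the log2 scale. Ajap1 gave 8.76, 29.5 and 77.7, under the floor in untreated Flk1- cells, so its distance depends on the offset added. Tspan9 gave 373, 811 and 1838. Nearest to Junb were Slc12a5, Hsd11b2 and Kalrn, at 0.02, 0.08 and 0.09. Nearest to Atf3 were Vav3, Kcnk6 and Fzd4, at 0.27, 0.28 and 0.29. Fzd4, a Wnt receptor gene, gave 73.3, 73.6 and 560.2. Likeness over 3 arrays is easily met among so many genes and is given as a description.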

How the data were processed

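The authors deposited linear intensity values, 1 for each probe set on each array, between 0.5 and 18191. Per the labels' protocols, biotinylated cRNA was made from column-purified total RNA by the Affymetrix procedure. How probes were summarised and arrays scaled is not given in the sources used. Array medians were 42.7 (untreated Flk1-), 42.4 (Snail Flk1-) and 44.6 (Snail Flk1+), so the columns were used as deposited; 1 array per group limits the precision.

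Of 45037 probe sets, 34945 had 1 symbol in the platform annotation, 932 several and 9160 none. Entrez IDs served to update symbols from RefSeq's gene table (GRCm38.p6). Differences are of log2(value + 9.53), where 9.53 is the 20th percentile of the table. A gene is represented by its brightest probe set and counts as measured where at least 1 of the 2 arrays compared is at or above 25.6, the 40th percentile. A fold is the log2 difference on a linear scale, or, where the dimmer value is under the floor, at least the brighter value over the floor. Calls are at least 2-fold by the log2 difference, with no test; where a value is under the floor, the bound can be under 2-fold. The step was tested on simulated arrays without noise, with differences planted in bright genes only. That checks the computing and not the error of an array. Computing used Python 3.11.15, numpy 2.4.6 and pandas 2.3.3.

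The members, lists, rules and alternatives were chosen with earlier results of these data known. Named genes are all members, up to 4 genes of each list with the largest difference in a comparison and up to 2 going the other way, the label checks Kdr, Snai1 and Cdh1, and the 3 nearest genes of 3 members. Atf2 and Ddit3 lie outside the rule and were chosen after their values were seen. The endoderm markers, all of them named, also lie outside it. So do Fgf5, Krt8, Col3a1, Dcn and Thy1, which were named after their values were seen.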

Additional observations from a re-analysis of the deposited data

How the results depend on the processing

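With 1 array per group, nothing here measures the spread between cultures, and differences near 2-fold have no error. No paired analysis was possible because each group has 1 array. Over the 10 alternatives, 294 of 300 values of the 10 genes stayed on their side of the threshold and 0 of the called ones turned sign. Of the other 6, 5 lost their call only at 3-fold and 1, Fosl2, gained one with the mean of all probe sets. Part of this count was fixed in advance. The 10 genes were measured under every floor tried, so changes of the floor could not move their values. Nor could leaving out probe sets by the suffix of their name, and a value under 2-fold cannot pass 3-fold. Jun lay closest to the threshold in Snail Flk1- against untreated Flk1- cells, at 1.0004 to 1.16 on the log2 scale, and Junb in Snail Flk1+ against Snail Flk1- cells, at 1.01 to 1.07; Egr1 reached 0.95 at most in the former.

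At a 3-fold threshold the members higher were 0, 1 (Atf3) and 3 in the 3 comparisons and the lower ones 0 in each. All measured genes then gave 115 higher and 33 lower, 251 and 232, and 528 and 400, beside 408 and 279, 689 and 676, and 1147 and 897 at 2-fold. With the mean of all probe sets the members' medians were 0.23 in the second and 0.50 in the third comparison. In the first comparison the counts over all genes were 255 higher and 176 lower with that mean, 167 lower with the floor at the 60th percentile, 497 lower with no offset, and 262 higher and 137 lower with the offset at the 40th percentile. With arrays centred on their medians there were 308 higher and 393 lower there, 43.9% of calls higher against 59.4%, and Jun and Junb were called higher under it. Among the other listed genes, 57 of 3318 values lost a call, 22 gained one and 0 turned sign.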
